A study of Mus musculus with 8 samples.

Results

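Methylation of 6 genes for T cell surface and costimulatory proteins (Cd2, Cd5, Cd6, Thy1, Cd28 and Icos) was followed along their whole loci in mouse B and T cells. The genes were taken by name, but with earlier results of these data known. The shares over the genome given below are thus context and no independent test of the choice. Each locus was the GENCODE gene with 10 kb to either side. The genes were 6 of 21082 protein-coding genes with a tested promoter. The samples came from spleens of C57BL/6J mice aged 6 to 8 weeks, with no genetic modification or treatment named. The 4 groups were female and male CD43- B cells, and female and male naive CD4+ T cells sorted as CD62Lhi, CD44lo and CD25-. Cells of several animals were pooled, and whole-genome bisulfite sequencing was run on 8 samples, 2 in each group. One file of CpG methylation per group was analysed, so no group had a replicate, and the difference between B and T cells was seen once in females and once in males. Bisulfite reads do not separate 5-methylcytosine from 5-hydroxymethylcytosine.

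Methyl groups on CpG dinucleotides are laid down over most of a mammalian genome, while the promoters and enhancers in use in a cell type are usually left unmethylated. CD2 is an adhesion receptor that binds CD48 in the mouse and is also carried by mouse B cells. CD5 and CD6 are scavenger receptors that sit with the T cell receptor and tune its signal, and CD5 also marks B-1a cells. Thy1 is a surface protein held by a lipid anchor, present on all mouse T cells. CD28 gives naive T cells their costimulatory signal on binding CD80 or CD86, and ICOS, its relative carried by activated T cells, binds ICOSL.

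The mean depth of the 4 files was 14.6 to 17.7 reads per autosomal CpG, and 79.5% to 80.7% of those reads were methylated. At the 6 loci it was 13.4 to 20.3 reads per CpG over the CpGs that had at least 5 reads in each of the 4 files. These made up 94.2% to 98.2% of the CpGs in the reference sequence at 5 loci, and 71.6% at Cd28. The promoters of marker genes followed the labels. Of 8 B cell markers, 7 were called less methylated in B cells, and 6 of 7 T cell markers were called less methylated in T cells. None of 4 myeloid markers was called in the quasi-binomial model described below, but 2 had an unadjusted p under 0.05. Lyz2 had a difference of -19.3 points (B minus T) with an adjusted p of 0.0436 in that model. It missed the call only by falling short of 20 points. Cd14 had a difference of 3.36 points. In turn 3 of 4 markers of CD8 T and NK cells were called less methylated in T cells. Cd8b1 was at 90.0% and 89.7% in the female and male B files and at 40.6% and 38.5% in the female and male T files. The part of other cells in the values below was not tested.

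All 6 loci held less methylation in the T files than in the B files. Cd2 stood at 66.1% in female B, 37.8% in female T, 66.1% in male B and 37.7% in male T cells over 374 CpGs. Cd28 stood at 88.1%, 66.5%, 87.4% and 67.5% in the same order over 481 CpGs. Thy1 was at 67.3%, 47.2%, 67.9% and 49.9% over 262 CpGs. The gap between the cell types was narrower at Cd5, Cd6 and Icos. Cd5 was at 80.1%, 66.7%, 80.4% and 65.4% over 500 CpGs, and Cd6 at 82.9%, 69.9%, 82.7% and 69.7% over 679. Icos was at 88.1%, 78.1%, 86.9% and 78.8% over 274 CpGs. The size of the difference varied along each locus. A level over a whole locus averages CpGs at different levels. Because the samples were bulk populations, a level between the extremes can also stand for a part of the cells or for a part of the alleles, and these cannot be told apart.

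**Figure D1:**
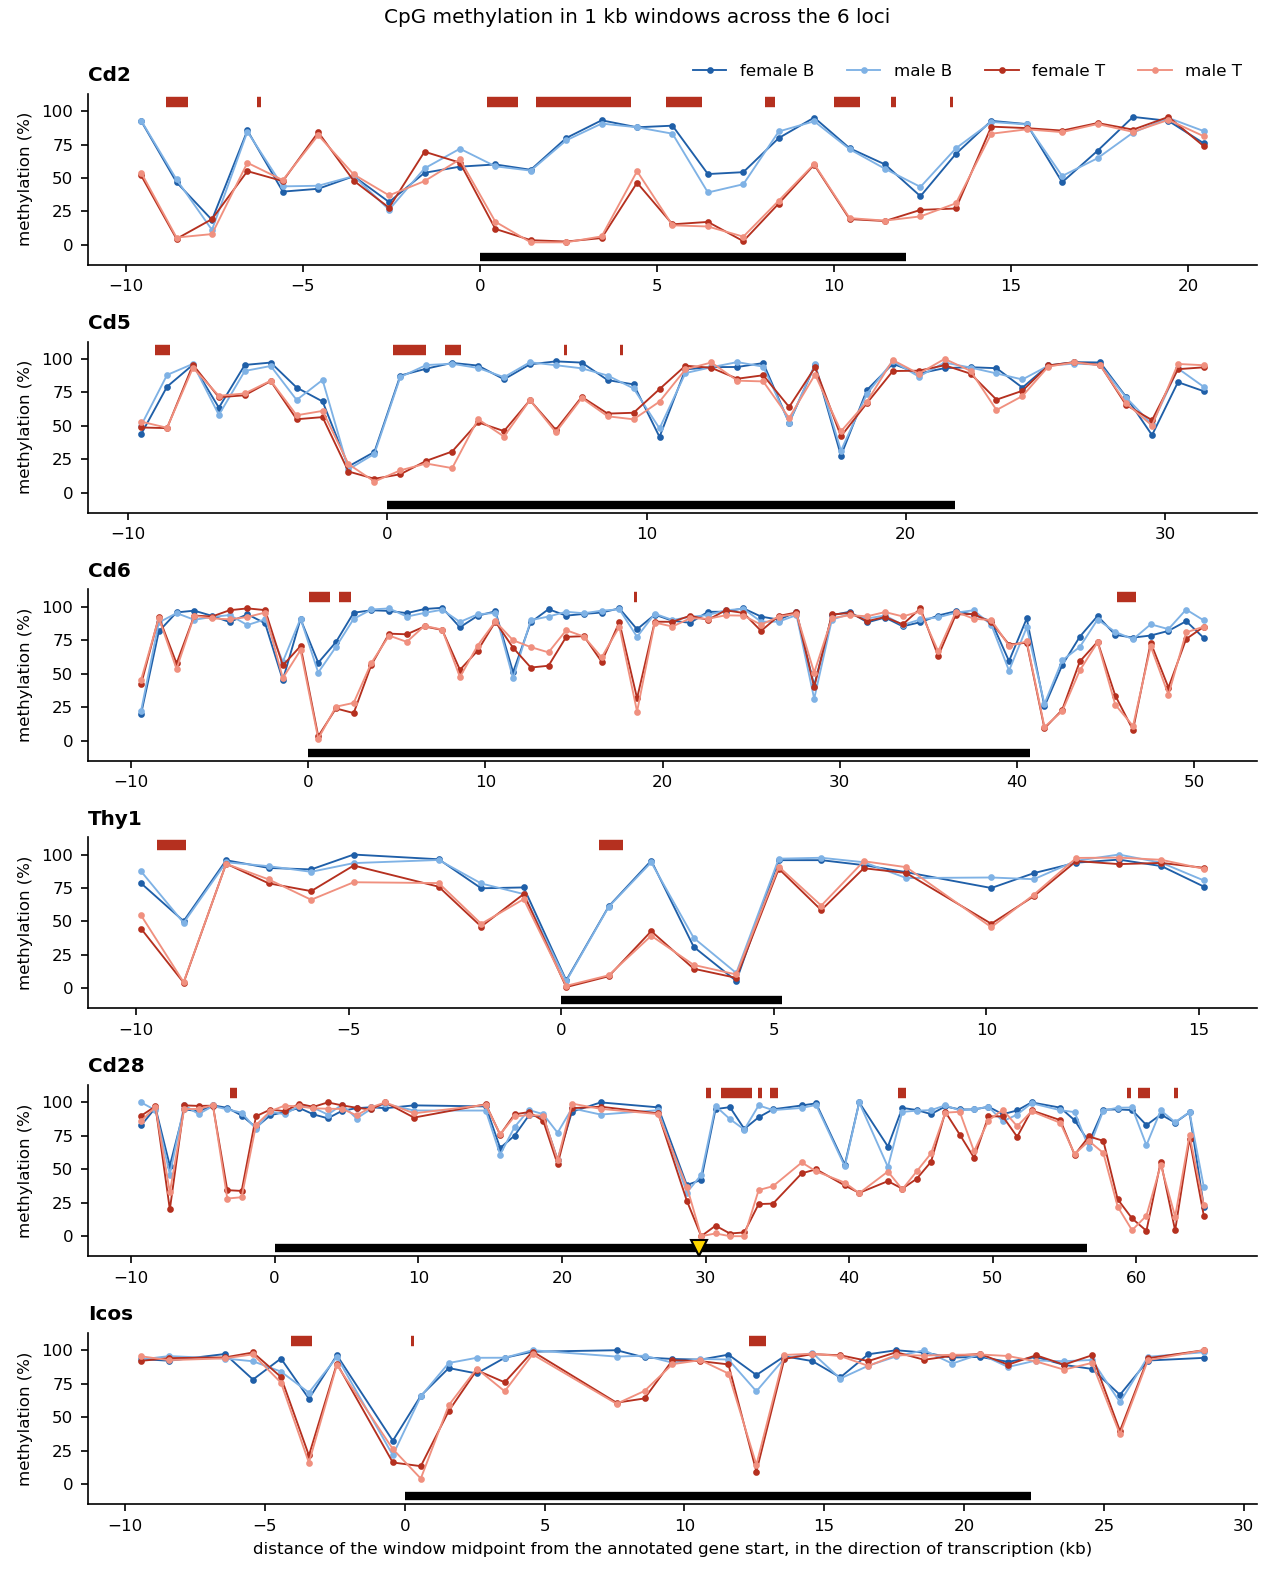
Methylation (%, y axis) of each 1 kb window against the distance of its midpoint from the annotated gene start in kb, in the direction of transcription, for female B (dark blue), male B (light blue), female T (dark red) and male T cells (light red). Black bars are the genes, red bars above are the 32 stretches unmethylated in T cells only, and the yellow triangle is the start of the protein-coding Cd28 transcript, where the T cell lines drop 29558 bp past the start of the gene record.

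The positions of the unmethylated DNA were found with a rule on levels. A CpG was marked where the level pooled over 3 neighbouring CpGs was at most 25% in both T files and at least 50% in both B files. Marked CpGs at most 500 bp apart were joined into a stretch if there were 3 or more. Unmarked CpGs between them became part of the stretch, of its CpG count and of its levels. Over whole stretches the levels thus reached 29.7% in T cells and 47.8% in B cells, past the limits. In the Cd5 stretch chr19:10736141-10736764, for example, 4 of 14 CpGs were marked. The levels chose the stretches, so these are a description with no test. Over the genome 0.175% of CpGs lay in such stretches as marked CpGs, and 0.119% under the mirrored rule for B cells. The loci held 32 stretches unmethylated in T cells only, with 9 at Cd2, 5 at Cd5, 4 at Cd6, 2 at Thy1, 9 at Cd28 and 3 at Icos, and 2 stretches unmethylated in B cells only, both at Cd2. The marked T cell CpGs made up 23.0% of the CpGs at Cd2, 11.02% at Cd28, 8.02% at Thy1, 6.57% at Icos, 6.40% at Cd5 and 5.596% at Cd6. The counts depended on coverage. With 10 reads required in every file, T cell stretches numbered 7 at Cd2, 3 at Cd5, 3 at Cd6, 2 at Thy1, 3 at Cd28 and 1 at Icos. Of the 32 stretches, 21 overlapped the member gene, 6 overlapped no gene, and 5 lay in another gene only. Of the 32, 21 lay over 2 kb from every annotated start of the member. Most of each locus lies far from the start. Of 253 windows of 1 kb at the loci, 230 had their midpoint over 2 kb from the annotated gene start. The count of 21 is thus no sign that stretches gather away from starts. Some of these 21 stretches lay close to a start of another gene. The stretch chr19:10747372-10747968 was 69 bp from a start of A430093F15Rik, and chr1:60779413-60779696 was 61 bp from a start of Gm37198. They were 18 to 2680 bp long with a median of 585.5 bp. Their widest 95% Wilson interval spanned 43.1 percentage points, in stretches with as few as 15 reads, and it covers counting error only.

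The sequences show where the CpGs behind these levels sit. For each gene, the 200 bp with the most measured CpGs in its main stretch, outside untranslated regions, is printed on the strand of the gene from the GRCm38 reference, with the measured CpGs in capitals.
Cd2: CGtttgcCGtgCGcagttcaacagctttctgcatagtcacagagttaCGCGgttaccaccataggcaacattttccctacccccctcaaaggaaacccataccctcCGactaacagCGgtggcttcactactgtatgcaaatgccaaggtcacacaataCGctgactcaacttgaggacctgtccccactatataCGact
Cd5: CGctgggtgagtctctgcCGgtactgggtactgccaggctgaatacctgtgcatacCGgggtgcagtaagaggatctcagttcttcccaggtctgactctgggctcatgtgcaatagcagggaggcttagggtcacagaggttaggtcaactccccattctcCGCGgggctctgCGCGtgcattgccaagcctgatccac
Cd6: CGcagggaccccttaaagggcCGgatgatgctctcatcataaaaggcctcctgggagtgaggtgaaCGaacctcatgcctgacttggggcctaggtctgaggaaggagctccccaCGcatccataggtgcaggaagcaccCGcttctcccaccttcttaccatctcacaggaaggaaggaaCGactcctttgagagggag
Thy1: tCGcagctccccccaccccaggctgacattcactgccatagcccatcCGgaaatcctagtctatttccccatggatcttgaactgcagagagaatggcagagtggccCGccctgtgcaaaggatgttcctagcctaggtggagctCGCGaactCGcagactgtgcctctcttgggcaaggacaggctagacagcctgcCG
Cd28: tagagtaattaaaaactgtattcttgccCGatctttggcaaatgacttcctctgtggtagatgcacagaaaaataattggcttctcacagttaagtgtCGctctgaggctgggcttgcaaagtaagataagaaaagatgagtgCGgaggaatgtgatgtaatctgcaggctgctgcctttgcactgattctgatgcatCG
Icos: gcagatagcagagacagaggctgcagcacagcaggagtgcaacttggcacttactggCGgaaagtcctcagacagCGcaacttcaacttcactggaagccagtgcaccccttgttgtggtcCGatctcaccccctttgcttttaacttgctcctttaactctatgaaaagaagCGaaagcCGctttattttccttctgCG

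The Cd2 piece lay in an intron at chr3:101285874-101286073, minus strand. Its 9 CpGs were at 62.2% in female B, 0% in female T, 62.6% in male B and 0% in male T cells, where the 0 of 109 and 0 of 209 T cell reads allow up to 2.75% and 1.44%. The Cd5 piece, chr19:10738601-10738800 on the minus strand, was at 89.2%, 19.0%, 86.0% and 24.3% over 7 CpGs. The Cd6 piece, chr19:10829456-10829655 on the minus strand, was at 81.6%, 3.77%, 67.5% and 0% over 6 CpGs, where 0 of 130 reads allow up to 2.31%. In these pieces every measured CpG was pooled. No T cell file reached the level of a B cell file, which the choice of the stretches by level largely set. The Thy1 piece in an intron, chr9:44044439-44044638 on the plus strand, was at 74.0%, 2.05%, 71.1% and 0.893% over 7 CpGs. The Cd28 intron piece, chr1:60749034-60749233 on the plus strand, was at 43.3%, 0%, 61.5% and 0% over 4 CpGs, and its 0 of 68 and 0 of 64 T cell reads allow up to 4.41% and 4.69%. The Icos intron piece, chr1:60990437-60990636 on the plus strand, was at 88.4%, 0%, 68.9% and 1.00% over 6 CpGs, where 0 of 159 reads allow up to 1.89%. The Cd28 piece was the poorest in CpGs and rested on the fewest reads.

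Short motifs of T cell regulators were searched on both strands in the 300 bp at the centre of each of the 32 stretches, each motif counted also where it overlapped another. The ETS core GGAA was found in 30 of 32 (93.8%), against 96.0% of 32851 RefSeq promoters of the same length. The RUNX motif TGTGGT was found in 5 (15.6%, promoters 16.8%), and the GATA core GATAA in 9 (28.1%, promoters 25.4%). The TCF/LEF motif CTTTGA was found in 8 (25%, promoters 16.0%) and the E-box CANNTG in 23 (71.9%, promoters 72.3%). These counts describe letters and not binding. The stretches were 18 to 2680 bp long, so the 300 bp ran past the ends of short ones and left out parts of long ones. The RefSeq promoter table held 1 of the 6 genes, Cd5, at chr19:10738925-10739224. All 3 measured CpGs of this promoter were unmethylated in all 4 files, over 46 and 49 reads in the B files and 47 and 75 in the T files.

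Every 1 kb window with 3 or more CpGs was then tested for the difference between B and T cells, with sex as a term, in a quasi-binomial model of methylated and unmethylated reads fitted to the whole genome. A window was called at a Benjamini-Hochberg adjusted p under 0.05 with a difference of at least 20 percentage points. Of 253 windows at the 6 loci, 84 (33.2%) were called higher in B cells, where 1.16% of all windows were, and 6 (2.37%) were called lower in B cells, where 0.913% were. These calls depended on the estimate of dispersion: with its prior taken from all windows, 0 windows were called in either direction in the quasi-binomial model, at the loci and over the genome, while 125 (higher) and 19 (lower) at the loci had an unadjusted p under 0.05. None of the windows named below was called with that prior. All 90 differed in the same direction in females and males, with a median gap of 4.71 points between the sexes and a largest gap of 26.3 points. The call was made on the mean of the female and male differences, with at least 20 points required. A shared direction was therefore largely set by the calling rule. The median difference of the 84 was 43.4 points. Of the 84, 72 had their midpoint over 2 kb from the annotated gene start, where 230 of the 253 tested windows lay. The called windows thus did not gather away from the start. Of the 84, 57 overlapped the member gene, and 143 of the 253 tested windows had their midpoint in it. With 1 file per group, the fit gave all windows a shared dispersion of 1.31, so the p-values rest on the spread over the genome and not on replicates.

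By gene, windows called higher in B cells were 16 of 31 at Cd2, 13 of 42 at Cd5, 17 of 61 at Cd6, 7 of 24 at Thy1, 23 of 61 at Cd28 and 8 of 34 at Icos. All 12 windows of the Cd2 gene body were called. A stricter description, with no test, took windows at most 20% in both T files and at least 60% in both B files. It held for 15 windows, against 0.0544% of the genome and 0.0277% for the mirrored rule. Of these 15, 6 were at Cd28, 4 at Cd2, 2 at Icos and 1 each at Cd5, Cd6 and Thy1. No window was called for sex, where 0.00103% of autosomal windows were. At an unadjusted p under 0.05 in the same model, 16 of the 253 (6.32%) differed by sex, against 4.73% of autosomal windows. A fit with no term for cell type called 0 at the loci and 0 over all autosomal windows, so its result says nothing about these loci.

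**Figure D2:**
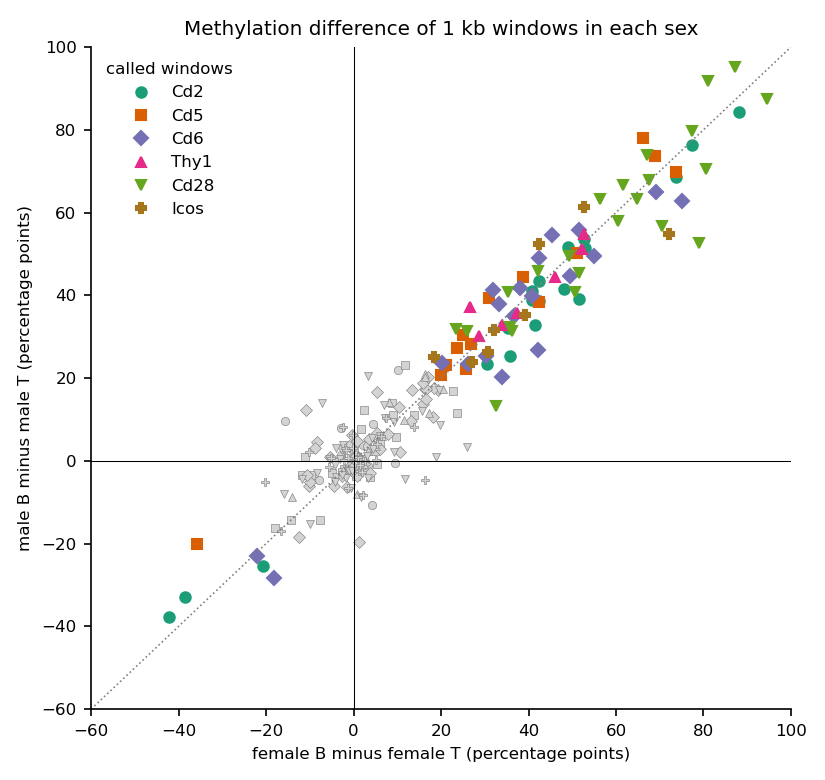
Difference in methylation between B and T cells in percentage points for females (x axis) and males (y axis), 1 point for each of the 253 windows of 1 kb. Coloured points are the 90 called windows by gene and grey points the others. Each called point has both differences above 0 or both below 0, which the calling rule largely set, and the points lie along the dotted line of equality.

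Around the annotated gene starts (1 kb to either side), 3 of the 6 genes were called higher in B cells, where 0.484% of 21082 promoters were, and none was called lower, where 0.432% were. The median difference of the 6 was 25.8 points, and that of all promoters was 0.147. Cd5 was at 70.4% in female B, 12.6% in female T, 70.3% in male B and 14.8% in male T cells. The difference of 56.6 points had an adjusted p of 7.31e-06 in the quasi-binomial model. With each file left out it was 55.5 to 57.7 points, and the call held. The fits with a file left out had a term for cell type and none for sex. Cd6 was at 70.6%, 29.4%, 64.6% and 26.6%, a difference of 39.6 points with an adjusted p of 2.77e-05 in the same model. Without the male T file, and with no term for sex, its difference was 38.2 points and the call was lost. Cd2 was at 59.9%, 30.02%, 63.8% and 30.7%, a difference of 31.5 points with an adjusted p of 0.000584 in the model. The Cd2 difference stayed at 29.5 to 33.4 points with each file left out, but the call was lost each time. Since these fits also dropped the term for sex, the lost calls cannot be put down to the missing file alone.

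Thy1, which has a CpG-rich start with 57 measured CpGs, was low in both cell types, at 17.3%, 8.69%, 14.8% and 6.99% in the same order. Its difference of 8.20 points fell short of the 20 points required (adjusted p = 0.0176 in the model). Icos was at 42.7%, 15.5%, 31.3% and 18.2%, a difference of 20.1 points with an adjusted p of 0.0954 in the model. With 10 reads required in every file only 4 Icos CpGs were left, and the difference was 0.685 points. The start of the Cd28 record was at 90.1%, 94.0%, 90.7% and 93.4%, a difference of -3.29 points (adjusted p = 0.602 in the model). Cd28 was the only one of the 6 above 90% in all 4 files.

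The gene record of Cd28 begins with Cd28-202, a processed transcript with no annotated protein, at chr1:60716800. The protein-coding transcript Cd28-201 begins 29558 bp further, at chr1:60746358. The 2 kb around this start were at 48.0% in female B (Wilson interval 40.2% to 55.9%, 152 reads), 6.41% in female T (3.52% to 11.4%, 156 reads), 40.4% in male B (32.9% to 48.4%, 151 reads) and 2.31% in male T cells (0.788% to 6.57%, 130 reads). This start was examined after the levels had been seen. In a fit over 53035 starts of protein-coding transcripts, of which 0.703% were called higher in B cells, the Cd28-201 start differed by 39.9 points (adjusted p = 0.000109 in the quasi-binomial model) and was called. The promoter result for Cd28 thus turned with the start that was used. Of the 13 protein-coding starts of the 6 genes, many of which share CpGs, 11 were called in this fit and 0 were called lower. Icos, with the same CpGs and difference as above, had an adjusted p of 0.0454 among these starts in the model.

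**Figure D3:**
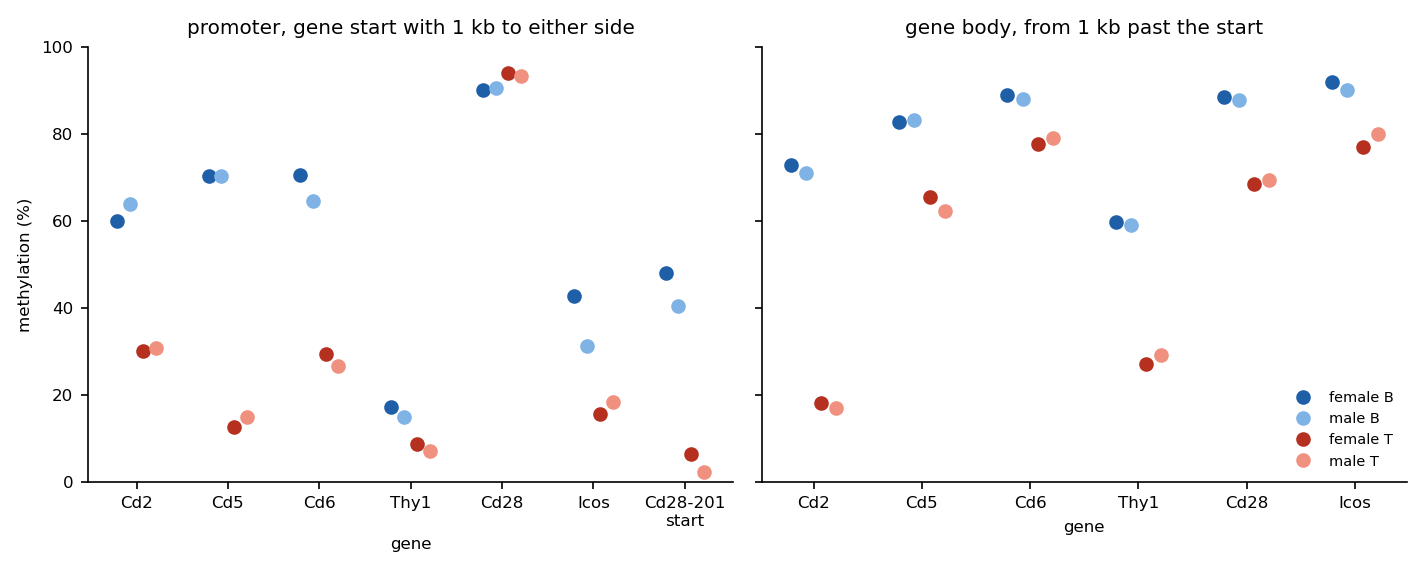
Methylation (%, y axis) of the promoter (left) and the gene body (right) of each gene (x axis), 1 point per file, with B cells in blue and T cells in red. At the left the Cd28 gene record stays above 90% in all 4 files, while the Cd28-201 start lies at 40.4% and 48.0% in B cells and at 2.31% and 6.41% in T cells.

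In gene bodies, taken from 1 kb past the start to the gene end, Cd2 and Thy1 were called higher in B cells, where 0.444% of 20509 genes were, and none was called lower, where 0.151% were. The Cd2 body was at 72.9% in female B, 18.2% in female T, 71.0% in male B and 17.0% in male T cells, a difference of 54.3 points (adjusted p = 9.69e-07 in the model). The Thy1 body was at 59.7%, 27.0%, 59.1% and 29.1%, a difference of 31.4 points (adjusted p = 7.11e-05 in the model). The other 4 differed by less than the 20 points required, Cd28 by 19.2, Cd5 by 19.1, Icos by 12.6 and Cd6 by 10.1. For Cd5 the whole gene from start to end differed by 23.4 points and was then called (adjusted p = 0.00842 in the model).

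Within the promoter windows the levels changed over short distances. In the 250 bp just upstream of the first protein-coding start, 5 of the 6 genes were at most 18.5% methylated in all 4 files, B cells included. The share of all coding starts with so low a level upstream was not counted. Over all promoters tested (1 kb to either side) the median level was 13.1% to 15.3% in the 4 files. A low level near the start is thus not particular to these genes. Cd2 was at 0% in all 4 files over 3 CpGs, where 0 of 31 reads in female B and 0 of 30 in male B cells allow up to 9.68% and 10.0%. Cd5 was at 5.00% in female B, 0% in female T, 1.35% in male B and 0% in male T cells over 5 CpGs. Icos was at 17.9%, 1.49%, 13.8% and 0% over 4 CpGs. Thy1 and Cd28 were low as well. Thy1 was at 18.5%, 5.15%, 18.0% and 6.08% over 9 CpGs, and Cd28 at 0%, 0%, 17.2% and 0% over 2 CpGs with 17 to 29 reads per file. Cd6 was the exception, at 94.1%, 55.0%, 93.8% and 41.2%, but on a single CpG with 16 to 20 reads per file.

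Just past the start the B files were above the T files at all 6 genes. In the 1 kb beginning 250 bp past the start, Cd28 was at 95.2% in female B, 6.67% in female T, 95.8% in male B and 1.67% in male T cells. This Cd28 span held only 5 CpGs, with 48 to 63 reads per file, the same CpGs as the stretch chr1:60746860-60747209 given below. Cd5 was at 95.9%, 16.9%, 92.3% and 19.3%, and Cd6 at 80.2%, 6.17%, 75.2% and 2.81%. The B files stood more than 70 points above the T files at these 3 genes. Icos was at 75%, 12.9%, 77.2% and 13.3% over 7 CpGs, and Cd2 at 56.0%, 5.97%, 58.3% and 4.48%. Thy1, where the unmethylated start was wider, was at 24.3%, 0.984%, 23.6% and 0.622%. These spans were set after the levels had been seen, so the counts are a description. All 6 genes were past the call thresholds there, as were 1.07% of 50761 coding starts. At 4 genes (Cd2, Cd5, Cd28 and Icos) the upstream 250 bp were at most 20% in all 4 files and the downstream 1 kb at most 25% in T and at least 50% in B cells, as at 0.0663% of 43740 coding starts.

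**Figure D4:**
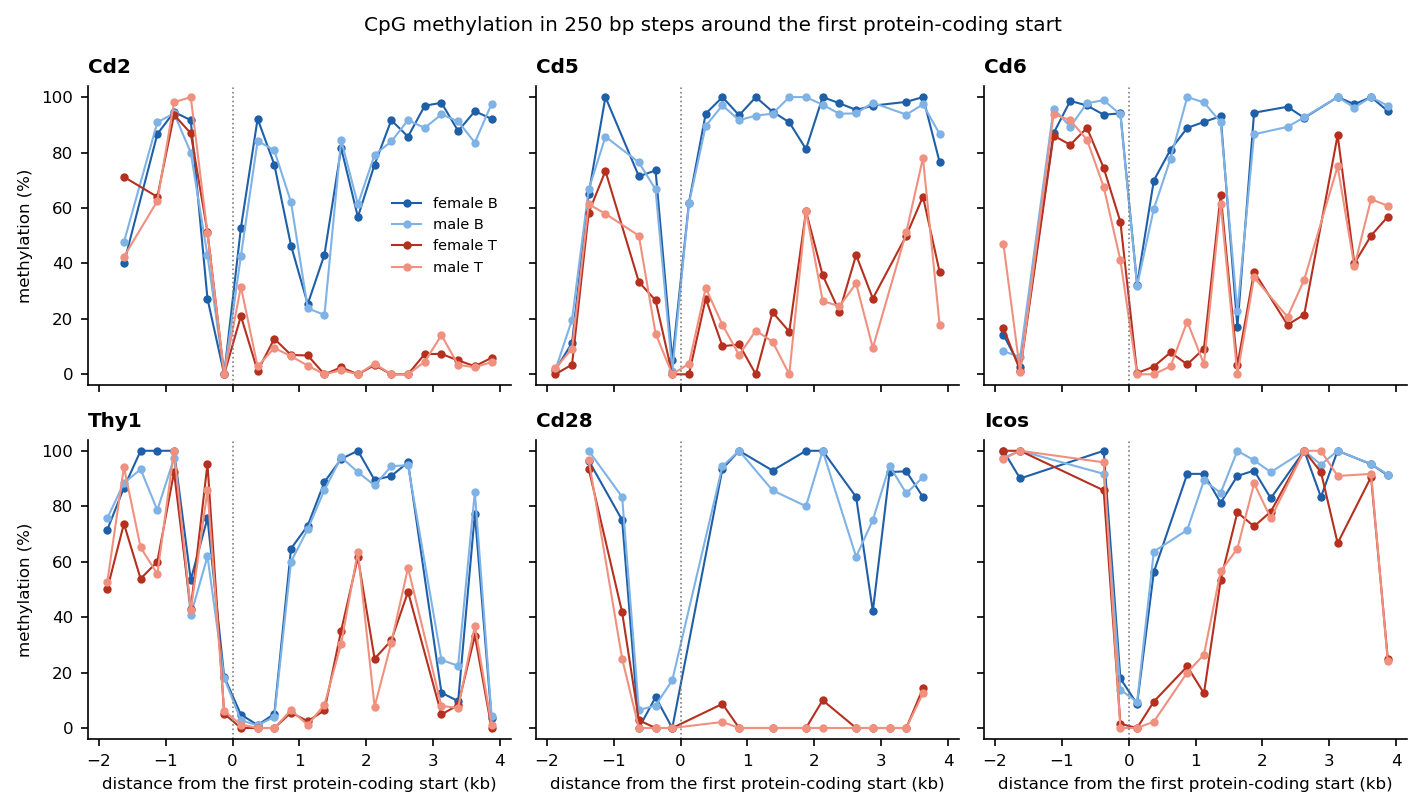
Methylation (%, y axis) in steps of 250 bp against the distance from the first protein-coding start in kb (dotted line, x axis), for female B (dark blue), male B (light blue), female T (dark red) and male T cells (light red). At 5 genes all 4 lines drop to at most 18.5% just before the start, and past it the B cell lines rise above the T cell lines. At Thy1 the gap is small at first and becomes wide from the step that begins 750 bp past the start. Further in, the T cell lines of Cd5, Cd6, Thy1 and Icos move up and down between steps, many of which hold few CpGs.

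At Cd2 (chr3:101275899-101287939, minus strand), 6 of the 9 stretches unmethylated in T cells lay in the gene. The longest was in an intron at chr3:101283682-101286361, with 39 CpGs over 2680 bp. It was at 85.7% in female B (82.4% to 88.4%), 4.70% in female T (3.37% to 6.53%), 84.4% in male B (81.1% to 87.2%) and 4.00% in male T cells (2.83% to 5.62%). The stretch nearest the start, chr3:101286869-101287748, overlapped a coding exon and was at 77.2%, 7.62%, 76.4% and 5.75%. In the intron window chr3:101284001-101285000 the difference was 86.2 points (adjusted p = 8.12e-156 in the model). The windows chr3:101285001-101286000 and chr3:101282001-101283000 differed by 76.8 and 71.1 points. Further along the gene, the stretches chr3:101281673-101282695, chr3:101279600-101279876, chr3:101277206-101277949 and chr3:101276191-101276330 were at 74.5% to 88.3% in B cells and 13.1% to 24.2% in T cells. T cells were not unmethylated along the whole gene. The window chr3:101278001-101279000, picked after its values were seen, was at 95.1%, 59.9%, 92.4% and 60.4%.

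Outside Cd2, 3 stretches with no annotated gene were unmethylated in T cells. That at chr3:101274592-101274658, past the gene end, was at 68.3%, 1.32%, 68.3% and 0% over 3 CpGs. Upstream, chr3:101294119-101294232 was at 78.7%, 15.5%, 75.9% and 18.9%, and chr3:101296191-101296805 at 47.8%, 4.60%, 49.2% and 4.59%. Cd2 also had the 2 stretches of the opposite kind, one on either side of the gene. Past the gene end, chr3:101270919-101271086 was at 0% in female B, 80.4% in female T, 0% in male B and 80.0% in male T cells over 3 CpGs, where 0 of 42 and 0 of 62 reads allow up to 7.14% and 4.84%. Upstream, chr3:101292672-101293188 was at 11.1%, 74.5%, 12.8% and 75.9% over 8 CpGs. The window chr3:101292001-101293000 over most of the upstream stretch differed by -40.0 points (adjusted p = 1.14e-22 in the model). The next window, chr3:101293001-101294000, which holds the rest of that stretch, differed by -6.27 points and was not called (adjusted p = 0.618 in the model). The other stretch ran across the boundary of the windows chr3:101270001-101271000 and chr3:101271001-101272000, which differed by -23.1 and -35.7 points (adjusted p = 4.63e-09 and 2.32e-11 in the model). Both were called lower in B cells, as was chr3:101292001-101293000.

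At Cd28 (chr1:60716800-60773359, plus strand), 4 of the 9 stretches began within 6 kb past the protein-coding start. The longest, chr1:60747847-60750018 in an intron, was at 85.3% in female B (79.7% to 89.6%), 2.38% in female T (1.02% to 5.45%), 81.7% in male B (75.6% to 86.5%) and 0.913% in male T cells (0.251% to 3.27%) over 16 CpGs. The stretch before it, chr1:60746860-60747209, was at 95.2%, 6.67%, 95.8% and 1.67%, on the same 5 CpGs as the span past the coding start given above. The 2 after it, chr1:60750577-60750675 and chr1:60751259-60751815, were at 86.4% to 100% in B cells, and at 0% to 5.88% and 22.9% to 27.4% in T cells. The windows chr1:60747001-60748000 and chr1:60748001-60749000 differed by 91.2 and 91.0 points (adjusted p = 5.71e-32 and 1.02e-37 in the model), on 4 CpGs each. A further intron stretch, chr1:60760219-60760792, was at 97.0%, 15.2%, 88.0% and 17.2%.

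Cd28 also differed at both ends, far from the coding start. Before the gene record, 2649 bp from its start, chr1:60713667-60714151 overlapped no gene and was at 98.8% in female B, 4.30% in female T, 97.4% in male B and 10.1% in male T cells over 6 CpGs. Past the gene end there were 3 stretches. The stretch chr1:60776242-60776356 was at 93.8%, 17.5%, 94.7% and 5.45%, and the next, chr1:60776918-60777753 over an exon of the long noncoding RNA gene Gm11579, was at 80.8%, 3.52%, 71.7% and 5.15%. The last, chr1:60779413-60779696 in a region shared by Gm11579, 2310016D23Rik and Gm37198, was at 83.9%, 3.51%, 82.9% and 18.3%. In this flank 6 of 9 windows were called higher in B cells, and chr1:60776001-60777000 differed by 86.4 points (adjusted p = 4.37e-57 in the model). The region downstream of Cd28 is shared with these noncoding genes, and a link to either was not tested.

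At Cd5 (chr19:10717116-10739002, minus strand) the main stretch lay at the beginning of the gene, chr19:10737521-10738800. It was at 93.3% in female B (90.1% to 95.5%), 15.4% in female T (12.3% to 19.2%), 90.8% in male B (87.4% to 93.4%) and 17.2% in male T cells (14.05% to 20.9%) over 20 CpGs. The next, chr19:10736141-10736764 in an intron, was at 97.0%, 29.7%, 96.8% and 18.1%, so the female T file was above the male one. Windows chr19:10738001-10739000, chr19:10737001-10738000 and chr19:10736001-10737000 differed by 71.8, 71.2 and 72.1 points. The plot across the loci shows the T cell level climbing from there into the gene, and 10 of 22 windows of the Cd5 body were called higher in B cells and 1 lower. The small intron stretches chr19:10732103-10732169 and chr19:10729942-10729994 were at 63.0% to 94.0% in B cells and 0% to 4.65% in T cells, on 3 CpGs each. An upstream stretch, chr19:10747372-10747968 in an intron of A430093F15Rik, was at 79.0%, 20%, 87.8% and 22.1%. In the opposite direction, the intron window chr19:10728001-10729000 was at 41.7%, 77.4%, 48.0% and 68.1% and differed by -27.9 points (adjusted p = 1.60e-09 in the model).

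Cd6 lies next to Cd5 on chromosome 19 (chr19:10789341-10830058, minus strand), and the loci did not overlap. The stretch at its start, chr19:10828835-10830039, was at 61.1% in female B (56.4% to 65.6%), 3.77% in female T (2.45% to 5.75%), 53.7% in male B (49.2% to 58.1%) and 1.52% in male T cells (0.799% to 2.85%) over 22 CpGs. The next, chr19:10827625-10828316, was at 87.1%, 22.9%, 85.1% and 24.5%, and an intron stretch, chr19:10811504-10811670, at 78.8%, 10.9%, 67.2% and 5.56%. Past the gene end, 8577 bp from the nearest Cd6 transcript start, chr19:10783317-10784411 lay in an intron of A430093F15Rik. It was at 72.9%, 4.26%, 71.4% and 6.46% over 12 CpGs. The windows chr19:10827001-10828000, chr19:10783001-10784000 and chr19:10811001-10812000 differed by 68.9, 66.9 and 53.7 points (adjusted p = 5.14e-59, 2.58e-53 and 4.89e-20 in the model). Thus 1 of the strongest differences at Cd6 lay outside the gene, inside a noncoding one. Windows lower in B cells were chr19:10818001-10819000 in a Cd6 intron, by -23.4 points, and chr19:10839001-10840000 over Slc15a3, by -22.6 points (adjusted p = 2.50e-11 and 2.01e-10).

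At Thy1 (chr9:44043384-44048579, plus strand) the T cell stretch followed the shared unmethylated start. It lay in an intron at chr9:44044283-44044839 and was at 77.1% in female B (71.4% to 81.9%), 4.21% in female T (2.47% to 7.06%), 75.9% in male B (70.5% to 80.6%) and 5.26% in male T cells (3.04% to 8.97%) over 13 CpGs. The windows chr9:44045001-44046000 and chr9:44044001-44045000 differed by 53.8 and 51.7 points (adjusted p = 1.21e-24 and 1.19e-86 in the model). A stretch 8818 bp from the nearest Thy1 start, chr9:44033869-44034566 in an intron of the noncoding gene Gm39323, was at 49.0%, 3.23%, 54.7% and 3.20% over 17 CpGs. The window chr9:44034001-44035000 there differed by 45.2 points (adjusted p = 7.20e-47). B cells were near the middle of the scale in this stretch, in both sexes.

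At Icos (chr1:60977927-61000320, plus strand) the clearest difference lay 12305 bp from the start, in an intron that overlaps an exon of Gm37039. The stretch chr1:60990232-60990839 was at 84.2% in female B (77.6% to 89.2%), 0% of 259 reads in female T (up to 1.16%), 69.3% in male B (61.9% to 75.9%) and 1.83% in male T cells (0.624% to 5.24%) over 10 CpGs. The window chr1:60990001-60991000 differed by 63.5 points (adjusted p = 2.63e-73 in the model). Before the gene, chr1:60973861-60974618 was at 68.2%, 16.2%, 73.5% and 12.0%, and its window chr1:60974001-60975000 differed by 47.4 points (adjusted p = 6.56e-12). Just past the start, chr1:60978196-60978213 was at 66.7%, 12.5%, 66.7% and 3.12%, on 3 CpGs and 15 to 32 reads per file, and the window chr1:60978001-60979000 differed by 57.0 points (adjusted p = 2.92e-09). The same 2 kb around the Icos start, as given above, were not called among gene promoters but were past the threshold among coding starts.

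Other genes of the same pathways were taken from a list, by promoter. Among relatives of CD28, 0 of 3 (Ctla4, Pdcd1 and Btla) were called in the quasi-binomial model, and 3 had an unadjusted p under 0.05. Pdcd1, an inhibitory receptor, was at 79.9% and 71.7% in the female and male B files and at 60.8% and 61.6% in the female and male T files. Of 5 TNF receptor family genes and ligands 3 were called higher in B cells. Cd27, a costimulatory receptor, was at 36.2% in female B, 3.50% in female T, 39.7% in male B and 3.75% in male T cells. Tnfrsf4, which encodes OX40, was at 91.8%, 56.0%, 91.7% and 55.6%. Cd40lg, the ligand of CD40, lies on the X chromosome, of which female cells keep an inactive copy, and was at 88.1%, 47.5%, 86.9% and 4.05%.

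Of 6 other T cell surface genes, 4 were called higher in B cells (Cd226, Cd96, Cd7 and Trat1), with a median difference of 23.2 points over the list. The Cd226 promoter rested on 3 CpGs, the fewest allowed, with 30 to 46 reads per file. Trat1, an adaptor of the T cell receptor, was at 85.5%, 27.3%, 86.5% and 32.7%. Of 5 ligands (Cd48, Cd80, Cd86, Icosl and Alcam), 0 were called in either direction in the quasi-binomial model, 1 had an unadjusted p under 0.05, and the median difference was 0.827 points. The median difference over 10 intracellular partners was 3.24 points.

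The gene nearest to each member over 8 values, the promoter and gene body level in each file, was found among 20159 protein-coding genes. Thy1 was nearest to Ccr7, a chemokine receptor of naive T cells, at a Euclidean distance of 12.0 points. Cd6 was nearest to Cd226 at 17.1, where the Cd226 promoter rested on 3 CpGs. Cd2 was nearest to Gimap4 at 34.1, the widest of the 6 distances, Cd5 to Slc16a5 at 14.4, Icos to Dennd1c at 15.1 and Cd28 to Cfap157 at 8.34. The Ccr7 promoter was at 22.0%, 7.88%, 21.7% and 8.13%, and its body at 64.3%, 25.4%, 63.6% and 23.8%. Gimap4 was like Cd2 in being lower in T cells in both parts, with a body at 69.4%, 40.9%, 72.0% and 38.3%. The match of Cd28 used the start of its gene record, so it rests on a promoter that was methylated in all 4 files.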

How the data were processed

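Whole-genome bisulfite sequencing gave the methylation of 8 samples, 2 for each of 4 groups, of which 4 files, 1 per group, were analysed. Whether a file joins both samples of its group is not given in the sources used here. The deposited files give, for each CpG, a methylation fraction and a count of reads (coverage). They hold no CpG under 5 reads. The submitters' processing notes name Trim Galore, FastQC, Bismark 0.13.1 and mm10. Methylated reads were recovered as fraction times coverage.

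CpGs with 5 or more reads in all 4 files were kept. Regions with 3 or more CpGs (windows of 1 kb, promoters with 1 kb to either side, gene bodies) were fitted genome-wide with a quasi-binomial logistic model with terms for cell type and sex, on the deposited read counts. Dispersion was squeezed with limma 3.58.1 (R 4.3.3), taking the prior from regions with 5 or more expected methylated and unmethylated reads in every file. F tests were adjusted by Benjamini-Hochberg over all regions of a kind. The code was tested on simulated data. Annotation was GENCODE M21 on GRCm38, which is mm10, and sequences and the promoter table were from RefSeq (GRCm38.p6). All measured CpGs of the 6 loci read CG in that sequence.

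Per gene, every stretch, up to 3 called windows higher and 2 lower in B cells were named, ranked by whichever sex differed less, with 3 more Cd2 windows named after their values were seen, and pathway genes where the promoter was called or to show a role. The members and lists were chosen with earlier results of these data known. With 1 file per group, no p-value measures the spread between replicates. The study's methods compare B with T cells by ranked levels at IAP repeat elements, not by gene or window, so the test was chosen here. Wilson intervals are at 95%, and the limit printed with some of the counts of 0 is that of 3 reads. Both cover counting error only, since neighbouring CpGs share reads. Alternatives changed the coverage minimum, window size, thresholds, dispersion prior, test, sex term and files used. Fits with a file left out had a term for cell type and none for sex. One result for a gene of the pathway list is not reported here.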

Additional observations from a re-analysis of the deposited data

How the results depend on the processing

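Windows higher in B cells numbered 84 at 20 points, and 66 to 110 with 30 or 10 points required, limma on log2 ratios (67), Fisher's exact test in both sexes (81), 10 reads per CpG (71), no term for sex (84) or each file left out (82 to 85). The count was 131 of 374 with windows of 500 bp and 47 of 136 with windows of 2 kb. With the dispersion prior taken from all windows, 0 windows were called in either direction in the quasi-binomial model, here and genome-wide, although 125 (higher) and 19 (lower) had an unadjusted p under 0.05; the cause was not tested. Windows lower in B cells numbered 6, and 14 at 10 points, 2 at 30 points, 2 with limma on log2 ratios, 14 at 500 bp, 3 at 2 kb and 6 with each file left out; the cause was not tested. Stretches unmethylated in T cells numbered 32, and 21 at limits of 20% and 60%. They numbered 19 with 10 reads per CpG, where Cd28 went from 9 to 3, Icos from 3 to 1 and Cd2 from 9 to 7. In the other alternatives they numbered 29 to 38. The cause was not tested. The spans past the coding start of Cd28 and Icos held too few CpGs with 10 reads to be fitted.

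The Cd28 promoter difference turned from -3.29 to 39.9 points with the Cd28-201 start, an alternative chosen after seeing the data. Of 65 alternative values of single promoters, gene bodies and start regions, 58 kept direction and call. Another 5 lost the call (Cd2 with each file left out, Cd6 without the male T file) and 1 gained it (the whole Cd5 gene). Many of the 58 belong to results that were not called to begin with, so keeping the call meant staying uncalled. These were the Thy1, Cd28 and Icos promoters and the Cd5, Cd6, Cd28 and Icos gene bodies. Among them is the Icos promoter at 0.685 points with 10 reads per CpG. The dispersion prior from all regions was tried for windows only. The comparison was made with sex as a term, but no pairing by replicate was possible because the groups share no replicate numbers and each has 1 file. Depth limits the small stretches most, and 1 file per group leaves no estimate of the spread between animals.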
